A study of Mus musculus with 6 samples.

Results

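The azurophil granule protease genes are 6 of the 54532 genes in the deposited expression data. They are Elane, Prtn3, Ctsg, Prss57, Mpo and Ms4a3, found by their Ensembl identifiers with the symbols of the GENCODE M21 mouse annotation. They were selected on their high values in macrophages of leukemic mice, so the comparison of leukemic with normal macrophages is a description here and not a finding. RNA was sequenced in 6 libraries, 1 per condition, with no replicate. The macrophages were from WT mice given PBS, WT/FE mice given iron dextran, MA9 mice with leukemia given PBS and MA9/FE mice with leukemia given iron dextran. The leukemia cells were from MA9 and MA9/FE mice.

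All mice were C57BL/6, 6 to 8 weeks old at the start. MA9 leukemia came from c-Kit+ bone marrow (BM) cells that a retrovirus made express the human fusion gene MLL-AF9 together with GFP, followed by transplantation. Iron overload in FE mice was set up with iron dextran (25 mg/mL) injected into the peritoneum 6 times, 0.2 mL each. By the sample labels the leukemia cells were from the BM. The methods of the study describe GFP+ leukemia cells for transplantation and coculture, and for RNA sequencing they name only macrophages. Macrophages were sorted from GFP- cells by low Gr-1, F4/80, intermediate CD115 and low to intermediate side scatter. The sample labels place the macrophages in the spleen whereas the methods of the study describe BM macrophages, and this difference could not be settled. The number of mice behind each library is not given in the sources used here.

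Azurophil, or primary, granules are the first granules that a granulocyte precursor makes, at the promyelocyte stage. Neutrophil elastase (Elane), proteinase 3 (Prtn3), cathepsin G (Ctsg) and neutrophil serine protease 4 (Prss57) are serine proteases stored in these granules, and myeloperoxidase (Mpo) is the heme enzyme that makes hypochlorous acid beside them. Ms4a3 encodes a membrane protein of granulocyte and monocyte progenitors and is used as a marker of that lineage. Their transcripts are abundant in progenitors and promyelocytes and are shut down before the secondary granule genes reach their peak, so mature neutrophils carry the proteins with little of the RNA. Normal macrophages are not a known source of these transcripts.

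The 4 proteases share the catalytic triad of the chymotrypsin family. The coding bases around the codon of the catalytic serine are shown because they let the kinship of the genes be seen, and the serine codon is in capitals.
Elane: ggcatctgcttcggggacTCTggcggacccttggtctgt
Prtn3: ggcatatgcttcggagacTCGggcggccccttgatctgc
Ctsg: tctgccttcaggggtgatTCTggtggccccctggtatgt
Prss57: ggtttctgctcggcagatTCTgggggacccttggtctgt
These are 39 bases each of the GENCODE M21 transcripts (GRCm38). The serine is residue 202 of 265 in Elane, 205 of 254 in Prtn3, 201 of 261 in Ctsg and 224 of 284 in Prss57. Of the 6 pairs, Elane and Prtn3 were the closest, with 53.2% identical residues over 250 aligned, and the other pairs had between 35.7% and 41.4%. Mpo, with 718 residues, and Ms4a3, with 213, belong to other families.

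Elane, Prtn3 and Prss57 lie on chromosome 10 (GRCm38), at chr10:79886247-79888215, chr10:79874476-79883174 and chr10:79781474-79790961. The gap between Prtn3 and Elane is 3.07 kb and that between Prss57 and Prtn3 is 83.5 kb. Mpo is at chr11:87793581-87804413, Ctsg at chr14:56099881-56102574 and Ms4a3 at chr19:11629496-11640851.

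The bases upstream of the transcription start are shown for the 4 genes with the highest levels, because all 6 genes had their highest values in the same libraries. RefSeq promoters of GRCm38.p6 were at hand for 5 of the 6 genes. Prss57 had no entry. Each stretch begins 250 bases before the RefSeq start, reads in the direction of the gene and ends before the next base that GENCODE counts as an exon of the gene. The stretch of Prtn3 lies upstream of its RefSeq start but within an intron of a longer GENCODE transcript. The others lie outside their genes. Capitals mark matches, on either strand, to short motifs. The letters searched for PU.1 were GAGGAA. Those for MYB were AACNG, and the TATA box was read as TATAAA. The CEBP letters, TTGCNNAA, and a motif of GFI1 that is longer than its core were searched as well. The shorter core of GFI1 was not searched on its own.
Elane: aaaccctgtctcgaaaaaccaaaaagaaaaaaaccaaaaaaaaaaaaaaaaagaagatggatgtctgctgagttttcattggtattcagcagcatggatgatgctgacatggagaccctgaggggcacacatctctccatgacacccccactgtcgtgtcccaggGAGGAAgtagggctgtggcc
Prtn3: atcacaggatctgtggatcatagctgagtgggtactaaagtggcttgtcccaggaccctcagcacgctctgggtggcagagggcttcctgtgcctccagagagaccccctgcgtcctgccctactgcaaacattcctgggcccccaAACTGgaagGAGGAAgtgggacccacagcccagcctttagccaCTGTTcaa
Mpo: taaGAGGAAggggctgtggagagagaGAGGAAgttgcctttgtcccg
Ctsg: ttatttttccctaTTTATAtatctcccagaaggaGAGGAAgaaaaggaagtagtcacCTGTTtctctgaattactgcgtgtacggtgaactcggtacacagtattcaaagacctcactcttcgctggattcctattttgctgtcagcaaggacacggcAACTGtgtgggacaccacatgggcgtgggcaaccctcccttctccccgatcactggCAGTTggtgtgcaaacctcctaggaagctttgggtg
The stretches are chr10:79886062-79886246 and chr10:79879417-79879613 on the plus strand for Elane and Prtn3, chr11:87793534-87793580 on the plus strand for Mpo and chr14:56102575-56102824 on the minus strand for Ctsg.

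In the full windows, from 250 bases before to 50 after the start, GAGGAA was found in 5 of 5 genes, against 28.3% of 32851 RefSeq promoters of the same length. The match begins 85 bases before the start in Elane and 95 bases before it in Prtn3. Mpo has a pair of matches, 247 and 224 bases before the start, and that of Ctsg begins 216 bases before it. AACNG was found in 4 of 5, all but Ms4a3, against 80.3% of all promoters. TTGCNNAA was found in Ms4a3 alone, where it begins at base 42 after the start and directly follows the match to GAGGAA, against 10.8% of all promoters. TATAAA was found in Ctsg alone, 237 bases before the start, against 13.6%. The longer GFI1 motif was found in none of the 5, against 2.82%, and this leaves unknown whether the shorter core is there. A match of letters is not a binding site, and no match says only that these letters are not in the window.

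The deposited values are FPKM, fragments scaled to exon length and to library size. Levels and ratios are given in FPKM as deposited, which is not adjusted for libraries of unlike make-up. Once multiplied by exon length, from 96.8% to 97.0% of the nonzero entries of a library came out as whole reads, within 0.05 reads. The depth recovered from this was between 16085346 and 19518359 reads per library. Every value of the 6 genes gave whole reads. Intervals are 95% exact Poisson intervals for levels and exact binomial intervals for ratios of FPKM, and they cover counting error only, not the spread between mice. With 1 library per condition no difference between 2 libraries was tested, and a gene is counted as past 2-fold when log2(FPKM + 1) differs by at least 1 after TMM scaling (trimmed mean of M values) of the pair, among genes with at least 10 reads in one of the pair.

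The sorted macrophages were not of a single kind. Of 15 macrophage markers, 10 to 12 reached 10 FPKM in each macrophage library and 3 or 4 did so in the leukemia cells. The 8 markers of B and plasma cells summed to between 2567 and 4217 FPKM in the macrophage libraries and the 15 macrophage markers to between 416 and 992. Neutrophil markers (10 genes, among them S100a8, S100a9, Ngp, Camp and Ltf) summed to 3.70 FPKM in WT and 2.62 in WT/FE macrophages, with 3 of the 10 at 0 in each, and to 1789 with leukemia (MA9) and 907 with leukemia and iron (MA9/FE). In the leukemia cells they summed to 2812 and 2145. The part that other cells have in the macrophage values of the azurophil genes was not tested, and in such bulk samples fewer cells of a type and less RNA per cell cannot be told apart.

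Elane stood at 1.51 FPKM in the macrophages of WT mice, 0.968 with iron (WT/FE), 56.8 in those of MA9 mice and 29.4 with iron (MA9/FE). Its level was 1705 FPKM in leukemia cells of MA9 mice and 1270.1 with iron. In MA9 leukemia cells it was the gene of rank 5 among all 54532 by FPKM, and in WT macrophages of rank 12107. Elastase cleaves elastin and many other proteins of matrix and microbes. Prtn3, whose protein is close to elastase and is the target of autoantibodies in vasculitis, stood at 0.947, 0.756, 26.1, 17.7, 927 and 746 FPKM in the same order. Ctsg stood at 0.942, 1.498, 28.1, 16.1, 1091 and 1154 FPKM. The 3 proteases were lowest without leukemia, higher in the macrophages of leukemic mice and highest in the leukemia cells. The first step of this order is set by the selection. The share of all genes with the same order was not counted, so nothing is read from it.

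**Figure D1:**
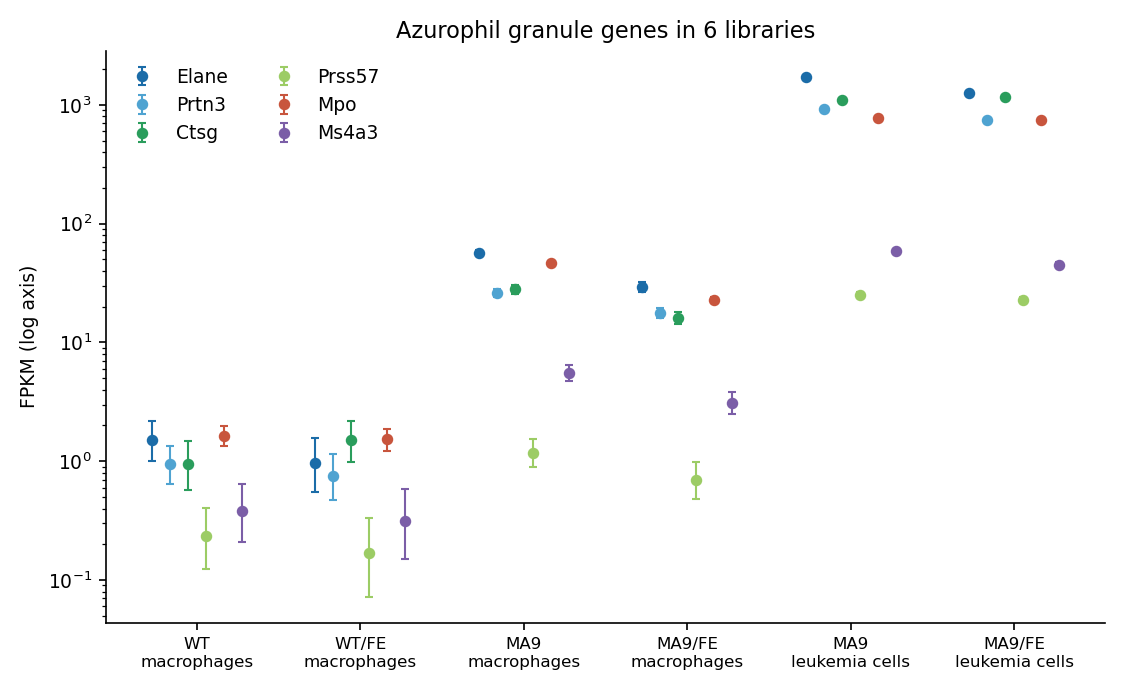
FPKM (log axis) of the 6 azurophil granule genes in each of the 6 libraries, with 95% Poisson intervals that cover counting error only. All 6 genes were lowest in the 2 libraries without leukemia, where no gene was above 1.63 FPKM, and highest in the 2 libraries of leukemia cells.

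Prss57 was the least abundant of the 6, at 0.234, 0.168, 1.18, 0.700, 25.2 and 22.9 FPKM in the same order. Its protein differs from elastase in cutting after arginine. Mpo stood at 1.63, 1.53, 47.1, 22.9, 775 and 744 FPKM. It took more reads than any other of the 6 genes in every library, from 88 in WT/FE macrophages to 48205 in MA9 leukemia cells, and its exons are also the longest, 3424 bases. Ms4a3 stood at 0.381, 0.316, 5.53, 3.10, 58.8 and 45.3 FPKM. In WT and WT/FE macrophages the 6 genes rest on 8 to 109 reads each, so the intervals there are wide: that of Prss57 in WT/FE macrophages runs from 0.0723 to 0.330 FPKM.

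Together the 6 genes took 0.725% of all reads in MA9 leukemia cells (95% Wilson interval 0.721% to 0.729%) and 0.643% in MA9/FE leukemia cells (0.639% to 0.647%). Their share was 0.0305% for macrophages of MA9 mice and 0.0162% for those of MA9/FE mice. In WT and WT/FE macrophages the shares were 0.00111% and 0.00101%, or 216 and 170 reads in all.

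The make-up of the set was not the same in each kind of library. Mpo was the highest of the 6 by FPKM in WT and WT/FE macrophages, the second in both macrophage libraries with leukemia and the fourth in both libraries of leukemia cells. Of the summed FPKM of the 6 genes, Mpo made up 28.6% (MA9) and 25.5% (MA9/FE) in macrophages of leukemic mice, against 16.9% and 18.7% in leukemia cells. The ratio of Elane to Mpo was 0.926 in the WT library and 0.633 in the WT/FE library. It was 1.21 (MA9) and 1.28 (MA9/FE) in macrophages of leukemic mice and 2.199 (MA9) and 1.71 (MA9/FE) in leukemia cells. Ctsg made up 17.1% (MA9) and 17.9% (MA9/FE) in macrophages, against 23.8% and 29.0% in leukemia cells. Neighbors in the order of levels did not all differ beyond counting error. In WT and WT/FE macrophages every gene overlapped the next in its interval, in both macrophage libraries with leukemia only Ctsg and Prtn3 did, and in MA9/FE leukemia cells only Prtn3 and Mpo did. In MA9 leukemia cells no neighbors overlapped.

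**Figure D2:**
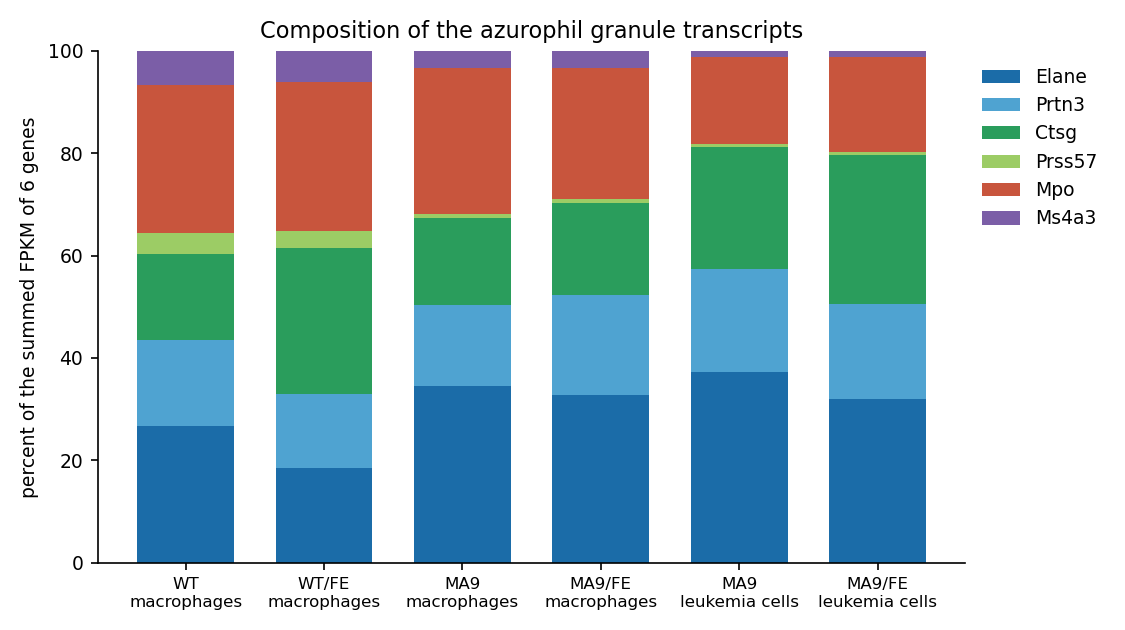
Share of each gene in the summed FPKM of the 6 azurophil granule genes (percent, stacked bars from 0), 1 bar per library. Mpo holds 28.6% of the bar in MA9 macrophages and 16.9% in MA9 leukemia cells, and Ctsg 17.1% and 23.8%.

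Macrophages of leukemic mice were the contrast on which the 6 genes were selected. Elane was 37.6-fold higher in MA9 than in WT macrophages by FPKM (95% counting interval 26.0 to 56.5), Mpo 28.9-fold (23.8 to 35.3) and Prss57 5.03-fold (2.72 to 10.02). In MA9/FE against WT/FE macrophages the ratios were 30.4 for Elane, 15.0 for Mpo and 4.18 for Prss57. On the log2(FPKM + 1) scale, which understates the change of low genes, 5 of the 6 were past 2-fold in each contrast, all but Prss57 with a log2 difference of 0.83 and 0.55, where 3.79% of 16926 and 2.93% of 16571 genes were higher by 2-fold. These counts are set by the selection and nothing is read from them.

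Leukemia cells were next set against macrophages from mice of the same genotype and treatment. The genes were not selected on this contrast, but it draws on the macrophage libraries in which they were selected as high. No label links the libraries by animal. All 6 genes were higher in the leukemia cells, by between 10.6-fold (Ms4a3, counting interval 9.12 to 12.5) and 38.8-fold (Ctsg, 35.5 to 42.5) in MA9 mice. Elane was 30.03-fold higher (28.1 to 32.1), Prtn3 35.6-fold (33.1 to 38.3), Prss57 21.4-fold (16.4 to 28.4) and Mpo 16.5-fold (15.9 to 17.1). On the log2(FPKM + 1) scale 6 of 6 were past 2-fold, with a median log2 difference of 4.42, where 7.34% of 17044 genes were higher and 12.6% lower by 2-fold and the median of all genes was -0.01. In MA9/FE mice the ratios ran from 14.6 (Ms4a3) to 71.8 (Ctsg, 63.7 to 81.3), again 6 of 6 past 2-fold, with a median log2 difference of 5.11, where 9.6% of 16842 genes were higher and 13.2% lower. This contrast shares its macrophage libraries with the others, sets spleen or BM macrophages against BM leukemia cells and has 1 library on each side, so the kind of cell, its source and the single library cannot be told apart.

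Seen from the other side, the macrophages held a small fraction of the leukemia cell level. In MA9 mice the macrophage FPKM was 3.33% of the leukemia cell FPKM for Elane, 2.81% for Prtn3, 2.58% for Ctsg, 4.67% for Prss57, 6.07% for Mpo and 9.40% for Ms4a3, with a median of 4.001%. The genes did not share 1 fraction: the interval of Mpo, 5.84% to 6.31%, and that of Ctsg, 2.35% to 2.82%, do not overlap. In MA9/FE mice the fractions were 2.31%, 2.37%, 1.39%, 3.06%, 3.08% and 6.85% in the same order of genes, with a median of 2.71%. All 6 were lower than in MA9 mice, but the intervals of 2 genes overlapped. They were 3.52% to 6.09% (MA9) and 2.08% to 4.34% (MA9/FE) for Prss57, and 8.01% to 10.97% and 5.51% to 8.45% for Ms4a3. The share of all genes with a lower fraction was not counted. These fractions use the same macrophage libraries as the iron comparison below.

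As a list, genes of later granules had a far larger median fraction, though not every gene did. Of 14 genes of secondary and tertiary granules and S100 proteins, all at 10 FPKM or more in MA9 leukemia cells, the median macrophage level was 51.7% of the leukemia cell level in MA9 mice, with a range of 6.16% (Hp, haptoglobin) to 159% (Ltf, lactoferrin). S100a9, a calcium-binding protein of mature neutrophils, stood at 62.8% and Ngp, neutrophilic granule protein, at 88.95%. The azurophil genes were at 10 FPKM or more in the leukemia cells for 6 of 6, and the highest of them, Ms4a3, lay above 2 of those 14 genes, Hp and Olfm4. Cybb and Mmp9 of this list stood at 130% and 35.3% of the MA9 leukemia cell level already in WT macrophages. In MA9/FE mice 13 of the 14 reached 10 FPKM in the leukemia cells. Their median fraction was 35.3%, with Olfm4 at 1.34%, Mmp8 at 3.19% and Hp at 4.25%. With the level without leukemia subtracted, the medians were 43.0% (MA9) and 27.4% (MA9/FE). As a whole, the summed FPKM of the 6 azurophil genes was 0.0921 (MA9) and 0.0991 (MA9/FE) of that of the 10 neutrophil markers in macrophages of leukemic mice. For leukemia cells it was 1.63 and 1.86, and in WT and WT/FE macrophages, where both sums are low, 1.53 and 1.997.

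The MLL-AF9 targets, genes that the fusion protein keeps active in leukemia cells, had a low median fraction but a wide range. Of 6 such genes at 10 FPKM or more in the MA9 leukemia cells, the median was 4.57% and the range 1.10% to 97.3% (Mef2c), with Hoxa10 at 1.10% (0.58% to 1.89%) and Hoxa9 at 1.95% (1.53% to 2.45%). Hoxa9 stood at 0.791 FPKM (MA9) and 0.724 (MA9/FE) in macrophages, against 40.6 and 40.96 in leukemia cells, and Hoxa10 was listed at 0 in both WT and WT/FE macrophages. Several of the targets were as high in macrophages without leukemia: Hoxa5 stood at 2.74% of the leukemia cell level in MA9 and 8.94% in WT macrophages, and Hoxa7 at 6.41% and 6.74%. With the level of the mice without leukemia subtracted, the median of the targets was 0.345% (MA9) and -0.423% (MA9/FE), against 3.49% and 2.30% for the 6 azurophil genes. The targets differed from each other in this value. Hoxa9 stood at 1.65% (MA9) and 1.46% (MA9/FE), Hoxa10 at 1.10% and 0.92% and Pbx3 at 1.02% and -1.04%. Hoxa5, Hoxa7 and Mef2c were below 0 in both, with Mef2c at -16.2% and -14.3%. How much of the azurophil RNA of the macrophage libraries comes from leukemia cells was not tested.

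**Figure D3:**
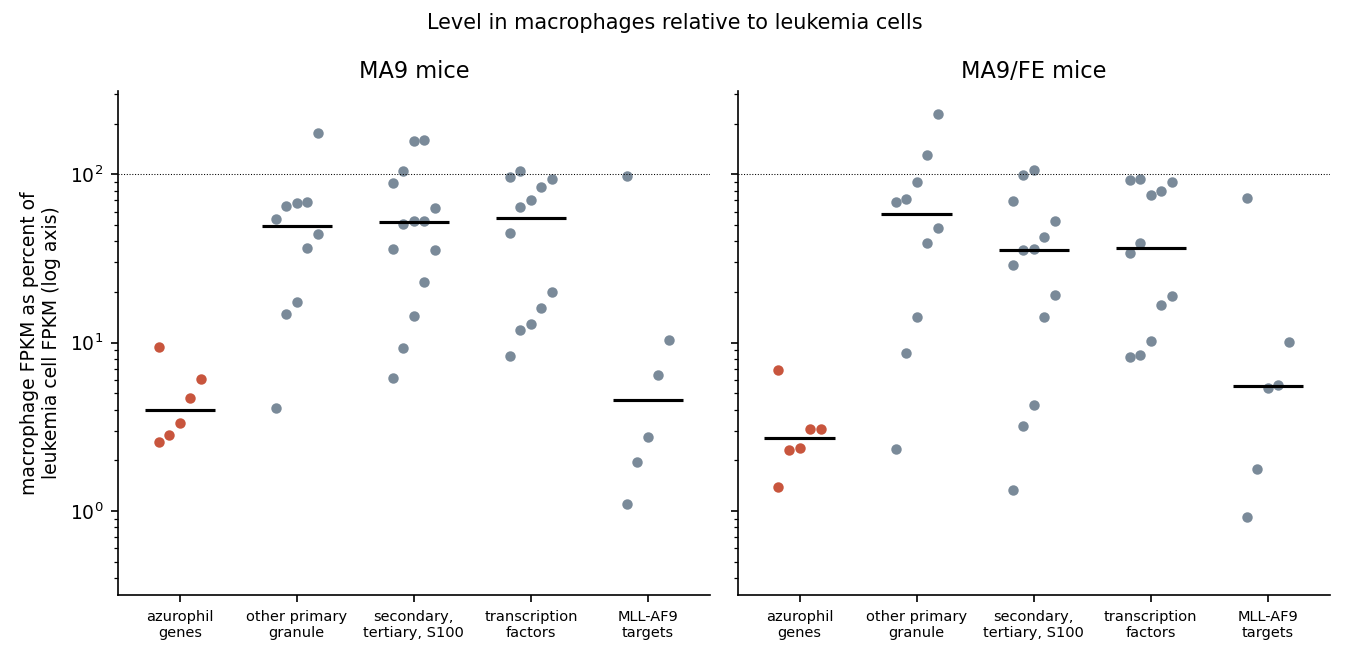
Macrophage FPKM as a percent of the leukemia cell FPKM of mice of the same treatment (log axis), 1 point per gene at 10 FPKM or more in the leukemia cells, with the median of each list as a line and 100% dotted. In MA9 mice the 6 azurophil genes (red) lie between 2.58% and 9.40%, while the median of the secondary and tertiary granule and S100 genes is 51.7%.

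Other contents of primary granules did not share the pattern as a list. Of 12 such genes, 5 were past 2-fold higher in MA9 leukemia cells than in MA9 macrophages and 1 was past 2-fold lower, with a median log2 difference of 0.76. Over all genes tested in this contrast 7.34% were higher and 12.6% lower by 2-fold, and in MA9/FE mice 9.6% and 13.2%. The same shares stand beside the lists that follow. Rab44, a large Rab GTPase, stood at 1.68, 1.83, 12.0, 5.61, 292 and 241 FPKM from WT macrophages to MA9/FE leukemia cells, and Fcnb, ficolin B, was listed at 0 in WT and WT/FE macrophages and stood at 8.61, 4.64, 49.6 and 53.5 FPKM in the others. Cd63, a membrane protein of these granules, was 2.61 higher and Lyz2, lysozyme, 1.42 higher on the log2(FPKM + 1) scale in MA9 leukemia cells. Lyz1, a second lysozyme gene, was the member past 2-fold lower, at 2.65 FPKM in MA9 macrophages and 0.218 in MA9 leukemia cells. The acid hydrolases of this list, which also fill lysosomes, did not share 1 direction. Gusb, beta-glucuronidase, was past 2-fold higher in MA9 leukemia cells, at 35.01 FPKM in MA9 macrophages and 78.9 in the leukemia cells. Man2b1 stood at 62.3 and 90.98 FPKM and Arsa at 7.69 and 14.2, neither past 2-fold. Fuca1, a fucosidase, stood at 35.7 and 20.4 FPKM, with a log2 difference of -0.81, and was past 2-fold lower in MA9/FE mice, at -1.18.

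The genes that process, store and inhibit the serine proteases did not share 1 direction between the leukemia cells and the macrophages. Over all genes tested 7.34% were past 2-fold higher in MA9 leukemia cells and 12.6% lower, with a median log2 difference of -0.01. Of the 12 listed, 2 were past 2-fold higher and none lower, with a median of 0.48. Those were Cst7, cystatin F, an inhibitor of the proteases that activate these enzymes, at 7.40 FPKM in MA9 macrophages and 56.6 in MA9 leukemia cells, and Serpinb1a, an inhibitor of elastase, at 27.0 and 109 FPKM. Ctsc, the dipeptidyl peptidase that activates all 4 proteases, went the other way without passing 2-fold, at 38.5 FPKM in MA9 macrophages and 22.4 in MA9 leukemia cells. Srgn, serglycin, a proteoglycan of the granule, stood at 149 and 255 FPKM. In MA9/FE mice 1 of the 12 was past 2-fold higher in the leukemia cells (Cst7) and 1 lower (Serpinb6a).

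Of 13 heme and NADPH oxidase partners of Mpo, 12 were tested in MA9 mice, and 2 were past 2-fold higher in the leukemia cells and 1 lower. The higher ones were Calr, calreticulin, the chaperone of the Mpo precursor, at 262 FPKM in MA9 macrophages and 587 in MA9 leukemia cells, and Ncf1, an oxidase subunit, at 60.2 and 134 FPKM. The lower was Hmox1, heme oxygenase 1, at 104 and 13.02 FPKM. A pair of related peroxidases were low in every library: Epx, eosinophil peroxidase, was at most 2.37 FPKM and Lpo, lactoperoxidase, at most 0.375.

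Of 12 transcription factors of the promyelocyte, 6 were past 2-fold higher in MA9 leukemia cells than in MA9 macrophages and none lower, with a median log2 difference of 0.81. Cebpe, which drives the step from promyelocyte to myelocyte, stood at 0.289, 0.240, 9.34, 4.66, 78.5 and 56.5 FPKM from WT macrophages to MA9/FE leukemia cells. It was lowest without leukemia and highest in the leukemia cells. Gfi1, a repressor needed for neutrophils, stood at 3.01, 2.95, 4.72, 3.80, 57.1 and 44.9 FPKM, and so differed less between macrophages with and without leukemia. Cebpd and Cebpa were 2.57 and 2.53 higher in MA9 leukemia cells on the log2(FPKM + 1) scale. Spi1, which encodes PU.1, was near the same level throughout, between 96.3 FPKM in MA9 macrophages and 138 in MA9 leukemia cells. In MA9/FE mice 7 of the 12 were past 2-fold higher and none lower.

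Related serine proteases of other cells had another pattern. Of 14 granzymes, mast cell proteases and other relatives, 8 were tested in MA9 mice, and none was past 2-fold higher in the leukemia cells and 5 were lower. Gzma, a granzyme of cytotoxic lymphocytes, stood at 58.2 FPKM in MA9 macrophages and 0.383 in MA9 leukemia cells, and Prss34, a basophil protease, at 93.2 and 2.58 FPKM. Mcpt8, another basophil protease and the nearest neighbor of Ctsg, stood at 38.9 and 15.6 FPKM. In MA9/FE mice 5 of 8 tested were also past 2-fold lower and none higher. Mcpt8 was not among those 5, at 19.0 FPKM in MA9/FE macrophages and 22.1 in MA9/FE leukemia cells. Of the 12 other Ms4a genes, 10 were tested and 1, Ms4a6c, was past 2-fold higher in MA9 leukemia cells and 6 were lower, among them the B cell gene Ms4a1 at 76.0 and 0.116 FPKM.

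The genes beside the 6 on the chromosome were read as a check of what their loci hold. The 3 nearest neighbors on each side with at least 10 reads in any library make 29 genes besides the members, of which 27 were tested between MA9 leukemia cells and MA9 macrophages. Of these, 4 were past 2-fold higher (Plppr3, Palm, Tspoap1 and the pseudogene Gm19810) and 4 lower (Mcpt8, Gzmb, Ms4a2 and Oosp1). Over all genes tested 7.34% were higher and 12.6% lower. Plppr3, which lies beside Prtn3, stood at 4.81 FPKM in MA9 macrophages and 53.8 in MA9 leukemia cells. Palm, beside Prss57, stood at 6.47 and 34.4 FPKM, and Tspoap1, beside Mpo, at 5.35 and 28.8 FPKM. Cfd, the serine protease complement factor D, lies 2.64 kb past Elane and was at most 0.911 FPKM in every library, and Lpo, 2.02 kb past Mpo, at most 0.375. Around Ctsg no neighbor was higher by 2-fold in the leukemia cells. In MA9/FE mice 5 of 26 tested were past 2-fold higher, Plppr3, Palm and Tspoap1 among them, and 3 lower. There 9.6% of all genes tested were higher and 13.2% lower.

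Some of these genes overlap a member. Plppr3 runs on the opposite strand and shares 159 bases with Prtn3, the antisense gene Gm11505 lies over 5361 bases of Mpo and Fstl3 shares 1157 bases with Prss57. Whether the counting used strand is not given in the sources used here, so reads in the shared bases cannot be assigned. Gm11505 was at most 0.747 FPKM and Fstl3 at most 0.811, well under the leukemia cell levels of Mpo and Prss57. In the macrophages this did not hold throughout. From WT to MA9/FE macrophages Plppr3 stood at 2.92, 3.69, 4.81 and 2.93 FPKM, against 0.947, 0.756, 26.1 and 17.7 for Prtn3. Fstl3 stood at 0.168, 0.438, 0.650 and 0.687 FPKM, against 0.234, 0.168, 1.18 and 0.700 for Prss57.

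**Figure D4:**
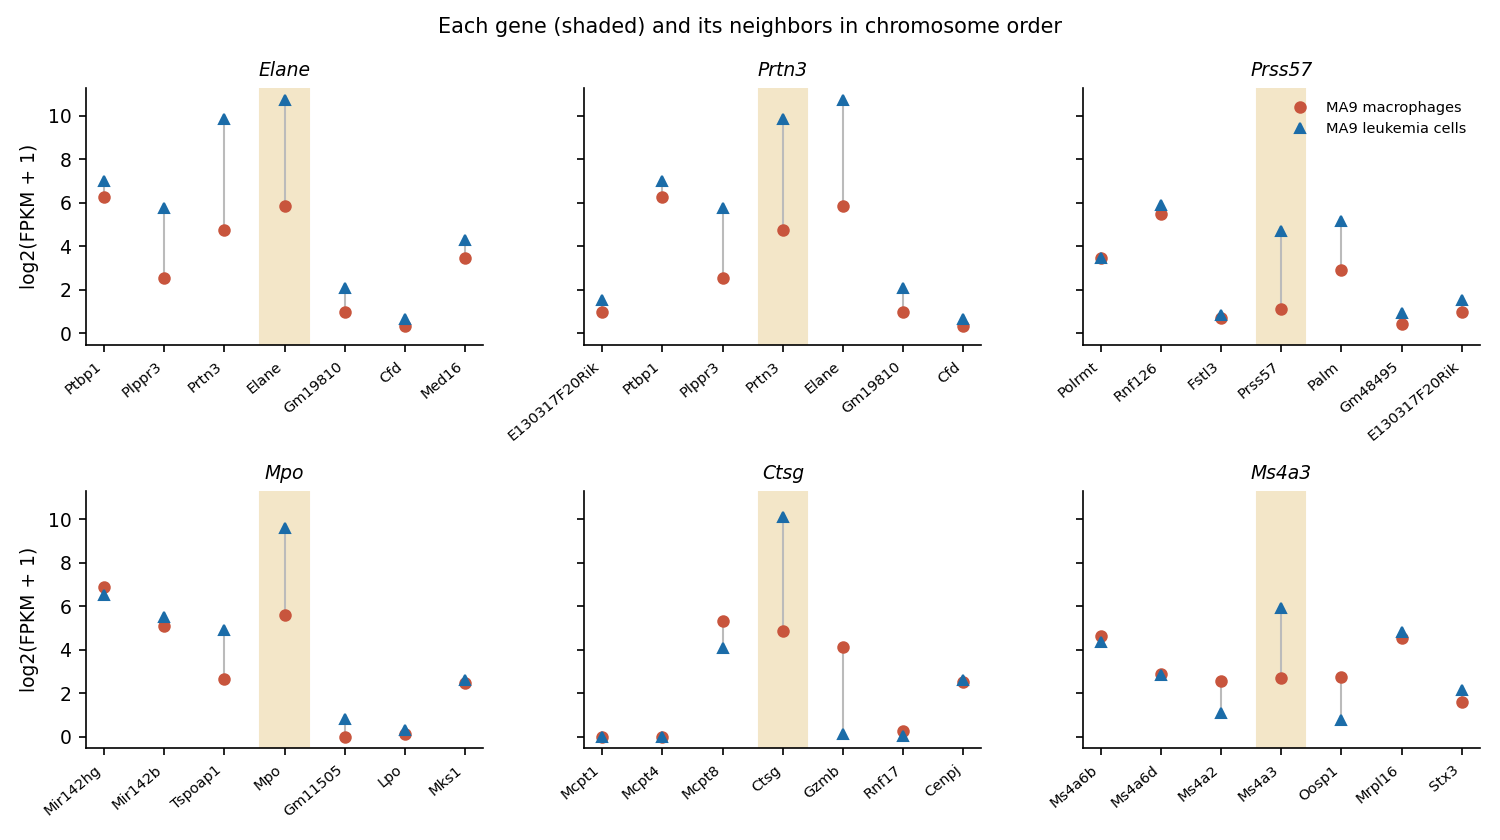
log2(FPKM + 1) of each azurophil granule gene (shaded) and of its 3 nearest neighbors on each side in chromosome order, in MA9 macrophages (red circles) and MA9 leukemia cells (blue triangles). Lines join the 2 libraries of a gene. Plppr3, at 4.81 and 53.8 FPKM, and Palm, at 6.47 and 34.4, are also higher in the leukemia cells, while Cfd, Lpo and Gzmb are at or under 1 FPKM there.

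Iron dextran was compared within each kind of sample. The genes were not selected on iron, but both libraries of the MA9 pair are among those in which they were selected as high, so this pair is not independent of the selection. With iron, macrophages of leukemic mice had lower values of all 6 genes. The ratio of MA9/FE to MA9 was 0.487 for Mpo (counting interval 0.455 to 0.521), 0.517 for Elane (0.462 to 0.579), 0.561 for Ms4a3 (0.432 to 0.725), 0.571 for Ctsg (0.490 to 0.664), 0.593 for Prss57 (0.372 to 0.931) and 0.678 for Prtn3 (0.605 to 0.761). Every interval lies below 1, which says only that these 2 libraries differ by more than counting error. On the log2(FPKM + 1) scale 0 of 6 were past 2-fold, with a median of -0.69, where 1.26% of 16512 genes were lower and 1.2% higher by 2-fold and the median of all genes was 0.01. Without scaling beyond the deposited FPKM 1 of the 6, Mpo, was past 2-fold.

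Of the 10 neutrophil markers, of which several are also secondary granule genes, 9 were lower in the same pair. Ly6g was higher, at 1.69 FPKM without iron and 1.98 with it, and Cxcr2 was nearly level, at 1.12 and 1.08. The summed FPKM of the 10 markers in MA9/FE macrophages was 0.507 of that in MA9 macrophages, and the summed FPKM of the 6 azurophil genes 0.545. Most basophil and eosinophil genes (5 of 6) and progenitor genes (9 of 10) were lower as well. Their median log2 differences were -0.77 and -0.43. Monocyte genes were split, with 3 of 6 lower, and 6 of 10 MLL-AF9 targets were lower. Of B and plasma cell genes 7 of 8 were higher, and of T and NK cell and of erythroid genes 6 of 8 each. Of 14 secondary and tertiary granule and S100 genes, 14 were lower and 4 were past 2-fold lower (Olfm4, Cd177, Ngp and Lcn2), with a median log2 difference of -0.93. In the same pair 15 of 15 macrophage markers were higher and 9 were past 2-fold, with C1qa at 62.8 FPKM without iron and 223 with it. The part that the mix of sorted cells has in the lower azurophil levels was not tested.

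In leukemia cells the differences with iron were small and not of 1 direction. Elane was 0.745 in MA9/FE relative to MA9 leukemia cells (0.732 to 0.758), Ms4a3 0.770 (0.720 to 0.823), Prtn3 0.804 (0.790 to 0.818), Prss57 0.907 (0.837 to 0.982) and Mpo 0.959 (0.947 to 0.971), while Ctsg was 1.06 (1.04 to 1.08). At 1162 to 48205 reads per gene, counting error is small and the unknown spread between mice is what limits these ratios. None of the 6 was past 2-fold, where 0.863% of 15415 genes were. Elane and Ctsg, the 2 highest of the set, thus came closer together, at 1705 and 1091 FPKM without iron and 1270.1 and 1154 with it.

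In WT macrophages no ratio with iron could be told from 1 at this depth. Mpo was 0.938 (0.700 to 1.25) and Elane 0.641 (0.325 to 1.22) in WT/FE relative to WT macrophages, and Ctsg 1.59 (0.847 to 3.04). The intervals of Prtn3, Ms4a3 and Prss57 also held 1. None was past 2-fold, where 1.27% of 16754 genes were.

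**Figure D5:**
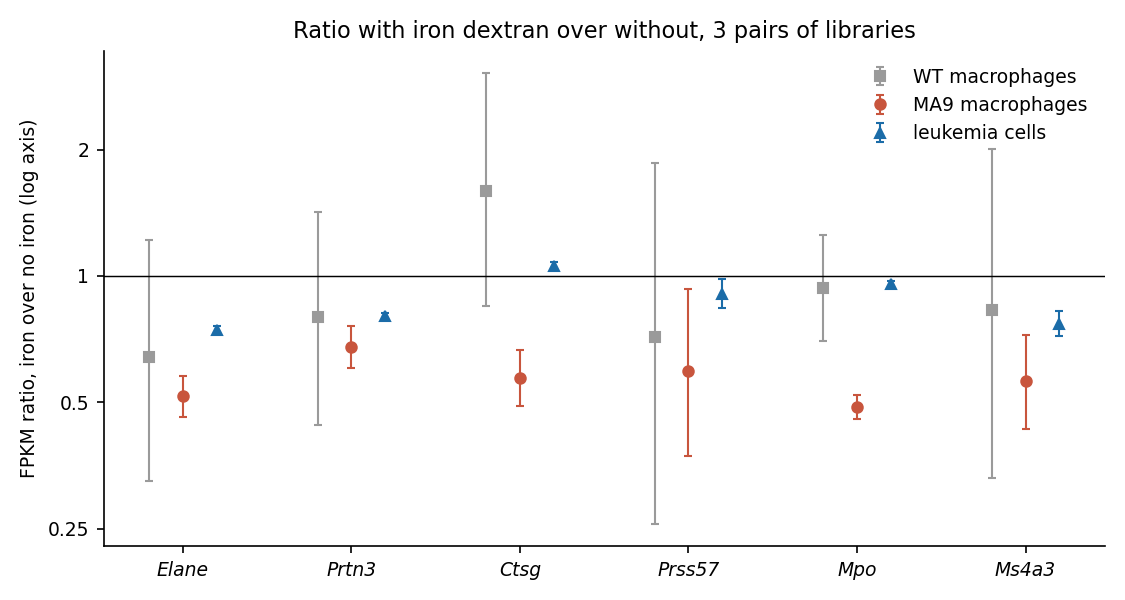
Ratio of FPKM with iron dextran over without (log axis) for each azurophil granule gene in WT macrophages (gray squares), MA9 macrophages (red circles) and leukemia cells (blue triangles), with 95% exact intervals that cover counting error only. All 6 ratios in MA9 macrophages are between 0.487 and 0.678, and the 6 in leukemia cells are between 0.745 and 1.06.

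Over the 3 pairs of libraries the effect of iron was tested by limma, with the pair (WT macrophages, MA9 macrophages or leukemia cells) as a block. The mean log2(FPKM + 1) difference with iron was -0.57 for Elane (SE 0.14), -0.37 for Mpo (SE 0.22), -0.37 for Ms4a3 (SE 0.14), -0.33 for Prtn3 (SE 0.11), -0.19 for Prss57 (SE 0.10) and -0.11 for Ctsg (SE 0.23). Elane, Prtn3, Mpo, Ms4a3 and Prss57 were lower in 3 of 3 pairs and Ctsg in 1 of 3. In the WT pair the counting intervals of all 6 held 1. The share of all genes lower in 3 of 3 pairs was not counted, so nothing is read from this count. By limma the adjusted p (Benjamini-Hochberg over all genes tested) was 0.992 for each of the 6, and 0 of 17152 genes (0%) passed 0.05, with 597 at an unadjusted p under 0.05. This test has 2 residual degrees of freedom and takes 3 unlike kinds of sample as replicates of iron. Without the MA9 macrophage pair the value of Mpo was -0.06 and that of Ctsg 0.22.

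Among 7060 genes with at least 10 FPKM in one library or more, the 10 genes whose pattern was most like the mean of the 6 were found by the root mean square distance of centered log2(FPKM + 1) over the 6 libraries. They were Rab44 (distance 0.51), Hp (0.57), Cebpe (0.77), Slfn4 (0.78), Ly6c2 (0.83), Fcnb (0.84), Gm42031 (0.86), Adgrg3 (0.88), F13a1 (0.93) and Stfa1 (0.94). The members themselves stood at between 0.37 (Mpo) and 1.32 (Prss57) from their own mean. Ly6c2, a surface protein of monocytes and their precursors, stood at 10.3, 9.43, 66.6, 49.8, 524 and 500 FPKM from WT macrophages to MA9/FE leukemia cells, and Hp, which binds free hemoglobin, at 2.68, 6.12, 25.5, 18.04, 413 and 424. Slfn4, a gene of the Schlafen family, stood at 0.233, 0.195, 4.11, 1.11, 71.8 and 62.3. Likeness over 6 libraries of which 2 hold most of the signal is a weak measure: by Pearson's r none of the 10 was among the 10 most alike, and with a pseudocount of 0.1 there were 4.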

How the data were processed

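The authors deposited FPKM per gene for 6 libraries. According to the submitters' processing notes, Bowtie2 2.2.5, RSEM and the mm10 build were used. The annotation and use of strand are not given in the sources used here. The members and all gene lists were chosen with earlier results of these data known. Genes were matched to GENCODE M21, which gave an exon length for 54495 of 54532 genes and a place for all 160 genes on the lists. FPKM times exon length gave whole reads (tolerance 0.05). Pairs were scaled by TMM coded by hand (30% of M and 5% of A trimmed) and compared on log2(FPKM + 1), with at least 10 reads in one of the pair. limma 3.58.1 on R 4.3.3 was fitted to log2(FPKM + 1) of the genes that reached 10 reads in 2 or more libraries. This pairing is by kind of cell and not by animal. Named genes are all members, list genes past 2-fold or the 4 with the largest difference where more passed, 3 neighbors on each side and the 10 genes most alike. Further list genes and markers were named after their values were seen. Protein identity was planned on RefSeq proteins but was computed from translated GENCODE transcripts by global alignment (BLOSUM62, Biopython 1.88). The 2-fold rule with TMM and the limma fit were run on simulated reads. Those reads had no difference between kinds of cell, unlike the libraries here. Python 3.11.15 with numpy 2.4.6, pandas 2.3.3, scipy 1.17.1 and matplotlib 3.10.9 was used.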

Additional observations from a re-analysis of the deposited data

Results flagged for a closer look

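Ctsg stood out among the 6 genes because its difference with iron changed direction between kinds of sample. The log2(FPKM + 1) difference was 0.36 in WT macrophages, -0.74 in MA9 macrophages and 0.081 in leukemia cells. It rests on 26 reads with iron and 19 without in WT macrophages, where the counting interval of the ratio, 0.847 to 3.04, holds 1. In leukemia cells it rests on 21282 and 20458 reads. With 1 library per condition the difference between kinds of sample was not tested.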

How the results depend on the processing

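No paired analysis was possible because each condition has 1 library and no number or animal links the libraries. The pairs in limma join libraries of the same kind of cell, and without that block limma also called 0 genes. The 42 differences of members over 7 comparisons kept their sign in each alternative that gave a value. With a minimum of 50 reads only Mpo gave one in WT/FE against WT, and Prss57 gave none in MA9/FE against WT/FE. A pseudocount of 0.1 raised the genes past 2-fold from 213 to 784 (WT/FE against WT), 795 to 1980 (MA9 against WT), 758 to 2083 (MA9/FE against WT/FE), 406 to 1499 (MA9/FE against MA9 macrophages), 133 to 631 (leukemia cells with iron), 3407 to 5809 and 3832 to 6498 (leukemia cells against MA9 and MA9/FE macrophages). Without a minimum of reads the first, the fourth and the fifth of these counts were 481, 731 and 375, and with a minimum of 50 reads 116, 234 and 60, as fewer or more low genes were tested. Without scaling, and by the median of ratios, 1 member (Mpo) was past 2-fold lower in MA9/FE than in MA9 macrophages instead of 0. A pseudocount of 0.1 moved the members past 2-fold from 5 to 6 in MA9 against WT and in MA9/FE against WT/FE macrophages, as Prss57 went from 0.83 to 1.95 and from 0.55 to 1.60. Leaving out 1 pair at a time, limma called 0 genes each time, and without the MA9 macrophage pair the value of Ctsg turned from -0.11 to 0.22 (range -0.34 to 0.22). Of the 10 most similar genes 0 remained by Pearson's r and 4 with a pseudocount of 0.1. The cause of that change was not tested. Depth limits the WT and WT/FE values, at 8 to 109 reads per gene, and also Prss57 in MA9 and MA9/FE macrophages, at 57 and 32 reads, and Ms4a3 in the latter, at 94. The lack of replicates limits every value.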
